A study of Mus musculus with 12 samples.

Results

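The Fc receptor group described here comprises 6 mouse genes, Fcgr1, Fcgr2b, Fcgr3, Fcgr4, Fcer1g and Fcgrt, chosen by gene symbol from the 55092 features of an abdominal aorta RNA-Seq table. RNA was taken from 12 male mice in 4 groups of 3. All mice carried floxed CCN2 alleles and received 5 doses of tamoxifen from 8 weeks of age, followed by a washout of 2 weeks. CCN2fl/fl mice had no Cre, and CCN2SMC∆ mice also carried Myh11-Cre-ERT2, in which the smooth muscle myosin promoter drives a tamoxifen-inducible Cre, so that the transgene and the deletion came together. Mini-osmotic pumps then delivered saline or Ang II, a pressor peptide used to induce aneurysm in mice, at 500 ng/kg/min for 7 days. The groups are CFS (CCN2fl/fl with saline), CSS (CCN2SMC∆ with saline), CFA (CCN2fl/fl with Ang II) and CSA (CCN2SMC∆ with Ang II), and each mouse is named by its label number (68, 69 and 70 in CFS, 54, 55 and 56 in CSS, 71, 72 and 74 in CFA, 01, 02 and 03 in CSA).

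Fc receptors bind the constant part of antibodies and connect antibody to the cells that carry them. On macrophages, monocytes and neutrophils, activating Fcγ receptors signal through ITAM motifs and Syk-family kinases to start phagocytosis, oxidant release and cytokine secretion, and an inhibitory receptor on the same cells carries an ITIM that recruits phosphatases. FcRn, by contrast, is an intracellular recycling receptor that returns IgG and albumin to the blood, and is found in endothelium and myeloid cells.

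Most of the family sits in one stretch of chromosome 1. On GRCm38 with the GENCODE M21 annotation, Fcgr2b (ENSMUSG00000026656) spans chr1:170958617-170976547 on the minus strand, Fcgr4 (ENSMUSG00000059089) chr1:171018920-171029761 on the plus strand, Fcgr3 (ENSMUSG00000059498) chr1:171051174-171064935 on the minus strand and Fcer1g (ENSMUSG00000058715) chr1:171229572-171234365 on the minus strand. Fcgr1 (ENSMUSG00000015947) lies apart at chr3:96282909-96293969 and Fcgrt (ENSMUSG00000003420) at chr7:45092990-45103851, both on the minus strand. Fcgr2b and Fcgr3 code for related receptors, and 9.58% of the 50-base windows in Fcgr3 transcripts and 2.92% of those in Fcgr2b transcripts were identical between them, while no window of the read length, 150 bases, was shared. Fcgr2b also shares 2.677% of its exonic bases with the annotated gene Gm38204.

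The promoter sequences of the 5 genes whose transcripts rose in CSA aortas are shown, with that of Fcgrt, which was not called, beside them. All are RefSeq sequences on GRCm38.p6, from 250 bases before to 50 after the start of the transcript, written 5′ to 3′ on the strand of the gene. A motif was searched on both strands. GAGGAA is the core bound by PU.1, the myeloid transcription factor encoded by Spi1, and reads TTCCTC on the opposite strand. Capitals mark a match.
Fcgr1, chr3:96293920-96294219, minus strand: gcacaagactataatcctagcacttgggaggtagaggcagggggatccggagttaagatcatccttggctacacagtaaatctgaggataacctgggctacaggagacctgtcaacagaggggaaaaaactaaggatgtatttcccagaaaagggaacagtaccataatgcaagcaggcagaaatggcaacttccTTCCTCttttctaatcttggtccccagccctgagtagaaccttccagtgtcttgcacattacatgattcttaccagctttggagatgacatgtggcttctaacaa
Fcgr3, chr1:171059354-171059653, minus strand: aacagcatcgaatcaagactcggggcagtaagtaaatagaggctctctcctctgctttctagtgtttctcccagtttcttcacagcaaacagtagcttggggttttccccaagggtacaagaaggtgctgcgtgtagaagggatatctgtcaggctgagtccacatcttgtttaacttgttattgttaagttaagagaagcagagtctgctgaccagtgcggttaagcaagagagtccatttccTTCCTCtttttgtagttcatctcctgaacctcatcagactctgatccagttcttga
Fcgr4, chr1:171018676-171018975, plus strand: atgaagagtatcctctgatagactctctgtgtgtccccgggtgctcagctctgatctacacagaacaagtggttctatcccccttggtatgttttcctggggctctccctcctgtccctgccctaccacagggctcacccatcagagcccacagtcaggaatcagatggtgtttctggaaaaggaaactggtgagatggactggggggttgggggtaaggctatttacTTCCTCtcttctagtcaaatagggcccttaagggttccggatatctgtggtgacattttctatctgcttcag
Fcgr2b, chr1:170976022-170976321, minus strand: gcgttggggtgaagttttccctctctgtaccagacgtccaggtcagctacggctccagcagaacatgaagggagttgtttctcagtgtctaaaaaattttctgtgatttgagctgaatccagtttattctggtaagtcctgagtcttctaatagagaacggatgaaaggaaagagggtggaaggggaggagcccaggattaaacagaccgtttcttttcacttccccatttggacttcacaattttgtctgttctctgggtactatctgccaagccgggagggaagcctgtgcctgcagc
Fcer1g, chr1:171234300-171234599, minus strand: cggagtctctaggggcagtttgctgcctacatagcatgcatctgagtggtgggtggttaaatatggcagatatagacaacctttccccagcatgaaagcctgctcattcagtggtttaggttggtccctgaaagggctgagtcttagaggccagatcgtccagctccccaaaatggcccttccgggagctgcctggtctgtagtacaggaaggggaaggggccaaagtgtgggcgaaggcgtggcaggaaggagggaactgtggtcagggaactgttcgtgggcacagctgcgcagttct
Fcgrt, chr7:45103773-45104072, minus strand: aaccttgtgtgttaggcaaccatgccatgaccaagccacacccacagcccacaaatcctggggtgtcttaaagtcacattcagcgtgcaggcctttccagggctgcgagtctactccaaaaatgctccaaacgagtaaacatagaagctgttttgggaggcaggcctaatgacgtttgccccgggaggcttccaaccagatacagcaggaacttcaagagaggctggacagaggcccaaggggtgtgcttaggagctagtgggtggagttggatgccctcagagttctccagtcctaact

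The PU.1 core lay 55 bases before the start of Fcgr1, 6 bases before that of Fcgr3 and 22 bases before that of Fcgr4, each time read as TTCCTC. It was not among the letters of the Fcgr2b and Fcer1g windows, 2 genes that also rose, nor of the Fcgrt window, and 28.3% of 32851 RefSeq mouse promoter windows of the same length held it. RefSeq lists another start for Fcgr3, where the PU.1 core stands 15 bases before it, and both starts lie inside the longer GENCODE gene. The Fcgr2b window likewise lies wholly inside the GENCODE gene. These matches describe the letters and were not tested for binding.

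The libraries held 14558580 to 23107807 fragments per mouse, recovered from the deposited values. Ccn2 itself ranged from 255 to 399 FPKM in CSA and from 564 to 1105 FPKM in CFA, a log2 difference of -1.41 (SE 0.34, limma adjusted p = 0.00622), and from 436 to 640 FPKM in CSS and 480 to 1108 FPKM in CFS, where the groups overlapped (-0.40, SE 0.34, adjusted p = 1). The transcript remained detectable in every CSS and CSA aorta, and bulk tissue also holds cells that the Myh11 promoter does not target. The source of the remaining transcript was not tested. CSA mouse 03 stood apart, at a root mean square log2 difference of 1.2 and 1.21 from mice 02 and 01, while mice 01 and 02 were 0.505 apart and pairs within the other groups 0.586 to 0.743. CFA mouse 72 had the highest level of macrophage and monocyte markers among floxed mice. The 8 smooth muscle markers summed to 5589 to 10366 FPKM in CFS, CSS and CFA mice and to 801 to 961 FPKM in CSA.

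Fc receptor transcripts in the saline-infused floxed aorta followed a fixed order. Levels are FPKM, fragments scaled to gene length and library depth, so genes can be set side by side. In CFS, Fcgrt (81.6 ± 8.90 FPKM, SD, n = 3) was above Fcer1g (14.1 ± 2.09), which was above Fcgr3 (11.2 ± 0.644), Fcgr2b (4.03 ± 0.850), Fcgr1 (1.36 ± 0.0845) and Fcgr4 (0.387 ± 0.326), and each gene exceeded the next in every mouse. The same order of means held in CSS, where Fcer1g and Fcgr3 overlapped, and in CFA, where neighbours from Fcer1g downward overlapped. In CSA the order was Fcer1g (269.6 ± 31.5 FPKM), Fcgr3 (118 ± 28.1), Fcgr4 (83.9 ± 14), Fcgr1 (76.0 ± 6.09), Fcgr2b (62.3 ± 25.0) and Fcgrt (61.3 ± 14.6), where the lowest Fcer1g value exceeded the highest of Fcgr3 and the ranges of all other neighbours overlapped. The recycling receptor Fcgrt had the highest mean of the 6 in CFS, CSS and CFA. Its lowest place in CSA rests on mouse 03, since Fcgrt was above Fcgr2b in CSA mice 01 and 02.

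**Figure D1:**
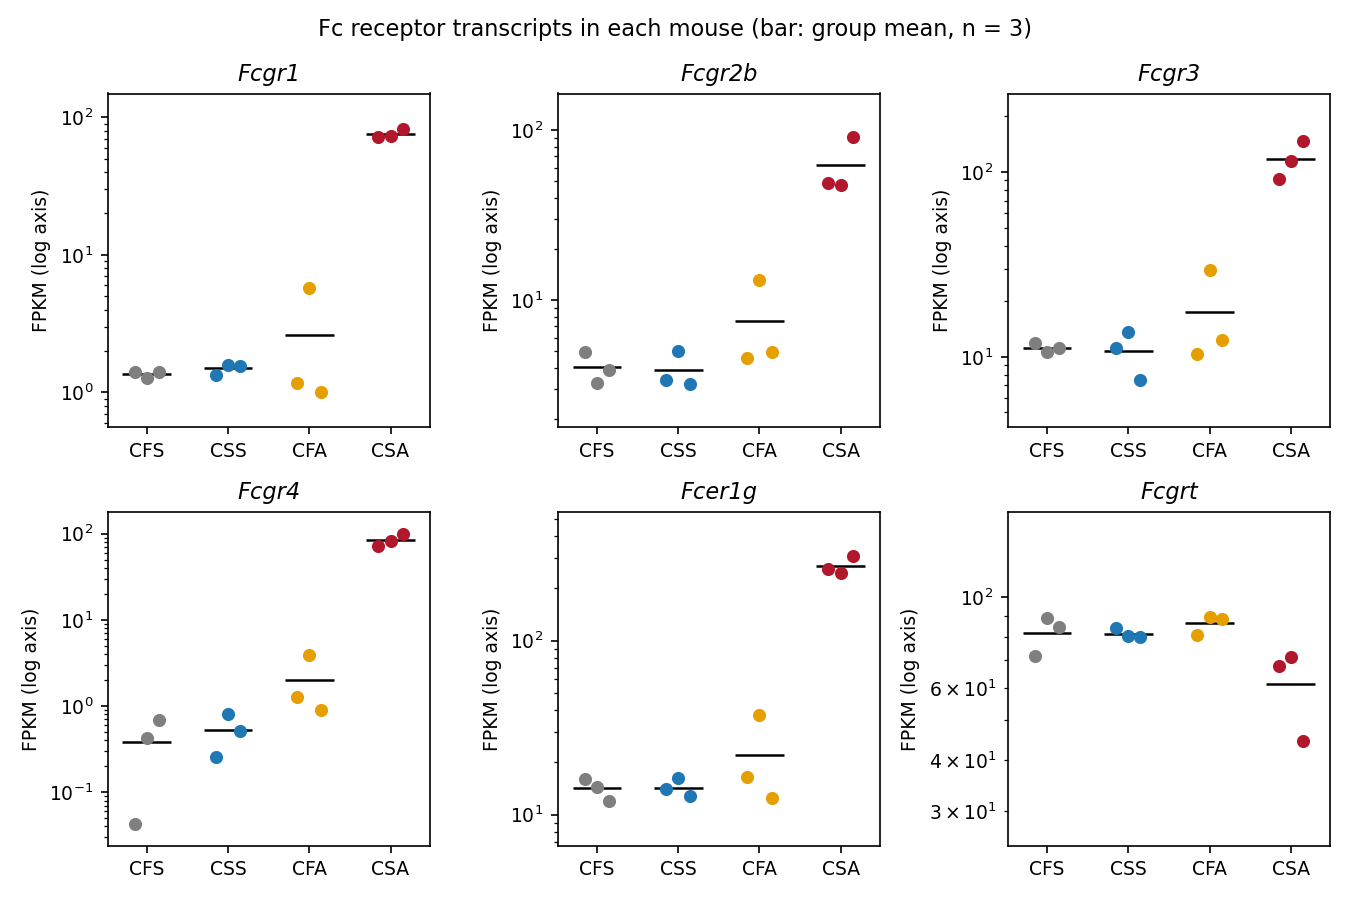
Transcript level of each Fc receptor gene in FPKM on a log axis, with 1 point per mouse and a bar at the mean of each group of 3. All CSA mice lie above all other mice for Fcgr1, Fcgr2b, Fcgr3, Fcgr4 and Fcer1g, CFA mouse 72 is the highest CFA point in those 5 panels, and CSA mice lie below the other groups for Fcgrt.

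The first question was whether CCN2 deletion in smooth muscle changed Fc receptor transcripts in the Ang II-infused aorta. Every Fcγ receptor and the shared γ chain were higher in CSA than in CFA, Fcgrt was not called, and the lowest CSA mouse exceeded the highest CFA mouse for each of the 5 genes that rose. A gene was called when its limma adjusted p was below 0.05 and its difference exceeded 1.5 in size on the scale of log2(FPKM + 0.1), a scale that understates the change of low genes. By that rule 5 of the 6 genes rose and none fell, against 17.2% of the 14676 tested genes called, 8.95% that rose and 8.27% that fell. Fcgr4 passed the filter on low values only through the CSA libraries, and without it 4 of 5 genes rose, here as in CSA minus CSS and in the interaction. Groups that did not overlap were common in this comparison, with 23.4% of tested genes higher and 25.1% lower in every CSA mouse. In bulk tissue, a change in the number of cells of a type and a change in RNA per cell cannot be told apart.

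Fcgr1, the high-affinity receptor for monomeric IgG, stood at 1.40, 1.26 and 1.41 FPKM in CFS mice, 1.33, 1.58 and 1.56 in CSS mice, 1.17, 5.72 and 1.0 in CFA mice and 72.1, 72.9 and 83 in CSA mice. All 3 CSA mice were high and close together, and 1 CFA mouse, mouse 72, was above the remaining floxed mice. The log2 difference of CSA from CFA was 5.24 (SE 0.48, 95% interval 4.17 to 6.31, limma adjusted p = 1.33e-05), at rank 56 from the highest of all tested genes. The lowest CSA mouse had 12.6 times the FPKM of the highest CFA mouse.

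Fcgr4, the mouse receptor that prefers IgG2a/c and IgG2b, was close to undetectable under saline, at 0.0431, 0.426 and 0.692 FPKM in CFS mice and 0.257, 0.816 and 0.512 in CSS mice, which corresponds to 1 to 19 fragments per library. It reached 1.28, 3.90 and 0.901 FPKM in CFA mice and 71.4, 81.2 and 99.1 in CSA mice. The CSA mice were far above all others, and the CFA mice lay above every CFS mouse. The log2 difference of CSA from CFA was 5.56 (SE 0.65, 95% interval 4.12 to 6.99, adjusted p = 6.29e-05), at rank 34 of all tested genes. Fcgr4 reached 1 FPKM in only 5 libraries, 3 of CSA and 2 of CFA, so it entered the test through the groups in which it was high.

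Fcgr3, a low-affinity activating receptor for IgG complexes, had the highest level of the 4 Fcγ receptors in each group. It measured 11.9, 10.6 and 11.1 FPKM in CFS mice, 11.1, 13.6 and 7.49 in CSS mice, 10.4, 29.6 and 12.3 in CFA mice and 92.0, 114 and 148 in CSA mice. Mouse 72 again led CFA, and still lay below the lowest CSA mouse, which was 3.10 times higher. The log2 difference of CSA from CFA was 2.88 (SE 0.36, 95% interval 2.10 to 3.67, adjusted p = 9.21e-05).

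Fcgr2b encodes the inhibitory receptor of the family. Its level was 4.95, 3.28 and 3.87 FPKM in CFS mice, 3.40, 5.03 and 3.22 in CSS mice, 4.59, 13.1 and 4.97 in CFA mice and 48.6, 47.2 and 91.2 in CSA mice. CSA mouse 03 was well above the other CSA mice, and all CSA mice exceeded all CFA mice. The log2 difference was 3.13 (SE 0.39, 95% interval 2.26 to 4.0, adjusted p = 1.03e-04).

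Fcer1g encodes the ITAM-bearing FcRγ chain, which the activating Fcγ receptors need to reach the cell surface and to signal. It measured 16.1, 14.4 and 11.9 FPKM in CFS mice, 14, 16.2 and 12.7 in CSS mice, 16.4, 37.3 and 12.5 in CFA mice and 259.8, 244 and 305 in CSA mice. The CSA mice were high and the CFA mice other than mouse 72 stayed near the saline level. The log2 difference of CSA from CFA was 3.76 (SE 0.32, 95% interval 3.05 to 4.47, adjusted p = 8.27e-06). The same chain serves the IgE receptor, whose remaining subunits stayed under the filter on low values, at group means of 0.128 to 0.912 FPKM for Fcer1a and 0.0300 to 0.118 FPKM for Ms4a2.

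Fcgrt encodes the heavy chain of FcRn. It measured 71.7, 88.8 and 84.5 FPKM in CFS mice, 84.0, 80.4 and 79.7 in CSS mice, 80.7, 89.6 and 88.6 in CFA mice and 67.9, 71.4 and 44.5 in CSA mice. Each CSA mouse lay below each CFA mouse, with mouse 03 the lowest. The log2 difference was -0.52 (SE 0.17, 95% interval -0.90 to -0.14, adjusted p = 0.0323), short of the fold limit, so Fcgrt was not called. An adjusted p below 0.05, whatever the fold, was found for 40.7% of tested genes here. Without mouse 03 the difference was -0.31 (adjusted p = 0.0346), and the adjusted p ranged from 0.0192 to 0.136 over the alternative settings. Its partner chain B2m, which FcRn shares with MHC class I, rose by 2.07 on the log2 scale (SE 0.31, adjusted p = 3.07e-04), and the ratio of B2m to Fcgrt FPKM was 5.60 to 6.14 in CFA and 21.1 to 88.4 in CSA, with mouse 03 the highest.

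**Figure D2:**
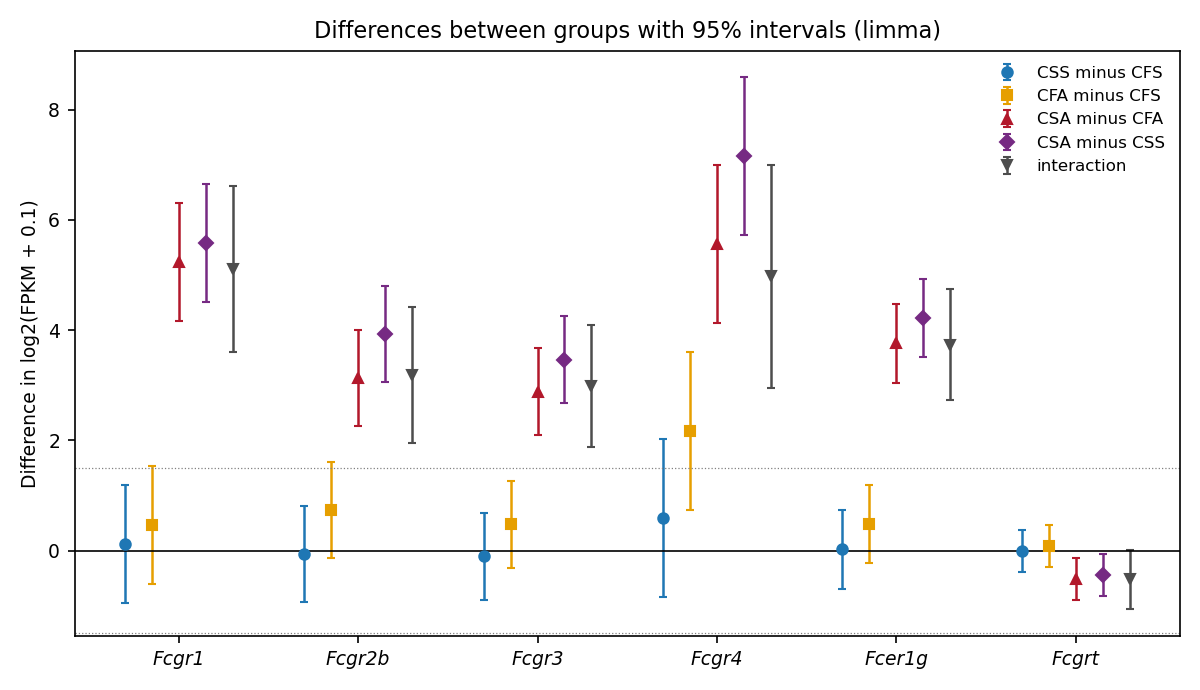
Differences in log2(FPKM + 0.1) between groups for each gene, as limma estimates with 95% intervals, with dotted lines at the fold limit of 1.5 in both directions. The CSA minus CFA, CSA minus CSS and interaction estimates lie above the limit for the 5 rising genes, and those of Fcgrt lie between -0.44 and -0.52.

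The size of the CSA change differed between members in its estimates. The intervals of Fcgr4 and Fcgr1 (4.12 to 6.99 and 4.17 to 6.31) lay above those of Fcgr2b and Fcgr3 (2.26 to 4.0 and 2.10 to 3.67), and the interval of Fcer1g (3.05 to 4.47) overlapped all 4. These differences between genes were not tested. The estimates without CSA mouse 03 were 5.17 for Fcgr1, 5.43 for Fcgr4, 2.71 for Fcgr3, 2.82 for Fcgr2b and 3.67 for Fcer1g, and each remained called. Leaving out CFA mouse 72 moved them further from 0, to 6.0 for Fcgr1, 6.15 for Fcgr4, 3.35 for Fcgr3, 3.61 for Fcgr2b and 4.22 for Fcer1g.

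In saline-infused mice the deletion was tested in the same way. No Fc receptor gene was called between CSS and CFS, where 0.0136% of tested genes were (2 genes, with 924 at an unadjusted p under 0.05). The log2 differences were 0.13 for Fcgr1 (95% interval -0.94 to 1.19), -0.06 for Fcgr2b (-0.93 to 0.81), -0.10 for Fcgr3 (-0.89 to 0.68), 0.02 for Fcer1g (-0.69 to 0.73) and 0.00 for Fcgrt (-0.38 to 0.38). Fcgr4 had the largest estimate and the widest interval, 0.58 (-0.85 to 2.02), at a handful of fragments. The limma adjusted p was 1 for all 6, and the groups overlapped for each gene, where 11.1% of tested genes were higher and 9.31% lower in every CSS mouse. The intervals of Fcgr1 and Fcgr4 still allow changes of more than 1 on the log2 scale. They rest on a spread estimated over all 4 groups, with an SE of 0.48 for Fcgr1 and 0.65 for Fcgr4. With only CSS and CFS in the fit, the SE was 0.17 for Fcgr1 and 0.71 for Fcgr4.

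The response of floxed aortas to Ang II was small beside the CSA values. No Fc receptor gene was called between CFA and CFS, where 0.0273% of tested genes were (4 genes, with 1383 at an unadjusted p under 0.05). Fcgr4 had the largest estimate, 2.18 (SE 0.65, 95% interval 0.74 to 3.61, limma adjusted p = 0.267, unadjusted p = 0.00665). Every CFA mouse exceeded every CFS mouse for this gene, as 9.44% of tested genes did (10.8% were lower in every CFA mouse), and without CFA mouse 72 the difference was 1.59 (adjusted p = 0.669, with 0.153 to 0.669 over all alternative settings). It was 1.45 without CFS mouse 68, which had 1 fragment, and 1.03 at a pseudocount of 1. The estimates for Fcgr2b, Fcer1g, Fcgr3, Fcgr1 and Fcgrt were 0.74, 0.49, 0.48, 0.47 and 0.08, with adjusted p from 0.625 to 0.959 and overlapping groups. Mouse 72 decided most of these values. Without it they were 0.26 for Fcgr2b, 0.03 for Fcer1g, 0.02 for Fcgr3, -0.30 for Fcgr1 and 0.06 for Fcgrt.

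In CCN2SMC∆ mice the response to Ang II was large for the same 5 genes. CSA minus CSS was 7.15 on the log2 scale for Fcgr4 (SE 0.65, limma adjusted p = 7.96e-06), 5.58 for Fcgr1 (SE 0.48, adjusted p = 5.95e-06), 4.23 for Fcer1g (SE 0.32, adjusted p = 2.69e-06), 3.93 for Fcgr2b (SE 0.39, adjusted p = 1.53e-05) and 3.46 for Fcgr3 (SE 0.36, adjusted p = 1.84e-05), against 20.3% of tested genes called and 10.9% that rose. Every CSA mouse exceeded every CSS mouse for these 5 genes, as for 26.3% of tested genes. Fcgr4 ranked 9 of all tested genes here. With a pseudocount of 1 in place of 0.1, its difference was 5.80 and that of Fcgr1 4.95, since both genes were near or under 1 FPKM in CSS. Fcgrt had a difference of -0.44 (95% interval -0.82 to -0.06, adjusted p = 0.0585) and was not called, with every CSA mouse below every CSS mouse, as for 29.1% of tested genes. Without CSA mouse 03 the difference was -0.22 (adjusted p = 0.0998, with 0.0302 to 0.151 over all alternative settings). The comparison shares the CSA mice with CSA minus CFA, so the pair is not independent.

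The interaction term asked whether the genotype difference under Ang II departed from that under saline. It was called, and positive, for the same 5 genes, at 5.11 for Fcgr1 (SE 0.68, limma adjusted p = 4.23e-04), 4.97 for Fcgr4 (SE 0.92, adjusted p = 0.00263), 3.74 for Fcer1g (SE 0.45, adjusted p = 2.49e-04), 3.19 for Fcgr2b (SE 0.56, adjusted p = 0.00188) and 2.99 for Fcgr3 (SE 0.50, adjusted p = 0.00159). Of all tested genes, 15.2% were called, and 7.89% of all tested genes were called with a positive term. Fcgrt had an interaction of -0.52 (95% interval -1.06 to 0.02, adjusted p = 0.145), and -0.31 without CSA mouse 03.

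Because the members rose by unequal amounts, the make-up of the Fcγ receptor pool differed between groups. Of the summed FPKM of Fcgr1, Fcgr2b, Fcgr3 and Fcgr4, Fcgr3 made up 66.1% ± 1.77 (SD, n = 3) in CFS, 64.1% ± 5.25 in CSS, 60.1% ± 3.85 in CFA and 34.6% ± 1.97 in CSA. Fcgr4 made up 2.34% ± 1.94, 3.16% ± 1.36, 6.50% ± 1.56 and 24.8% ± 1.14 in the same order, and Fcgr1 8.01% ± 0.306, 9.34% ± 2.52, 7.62% ± 2.95 and 22.7% ± 2.85. The highest share of Fcgr4 outside CSA was 7.45%, in a CFA mouse, and the lowest in CSA was 23.5%. The inhibitory receptor Fcgr2b held 23.6% ± 3.14 in CFS, 23.4% ± 2.10 in CSS, 25.8% ± 0.670 in CFA and 17.9% ± 3.41 in CSA, where the highest mouse, at 21.6%, overlapped the saline mice.

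**Figure D3:**
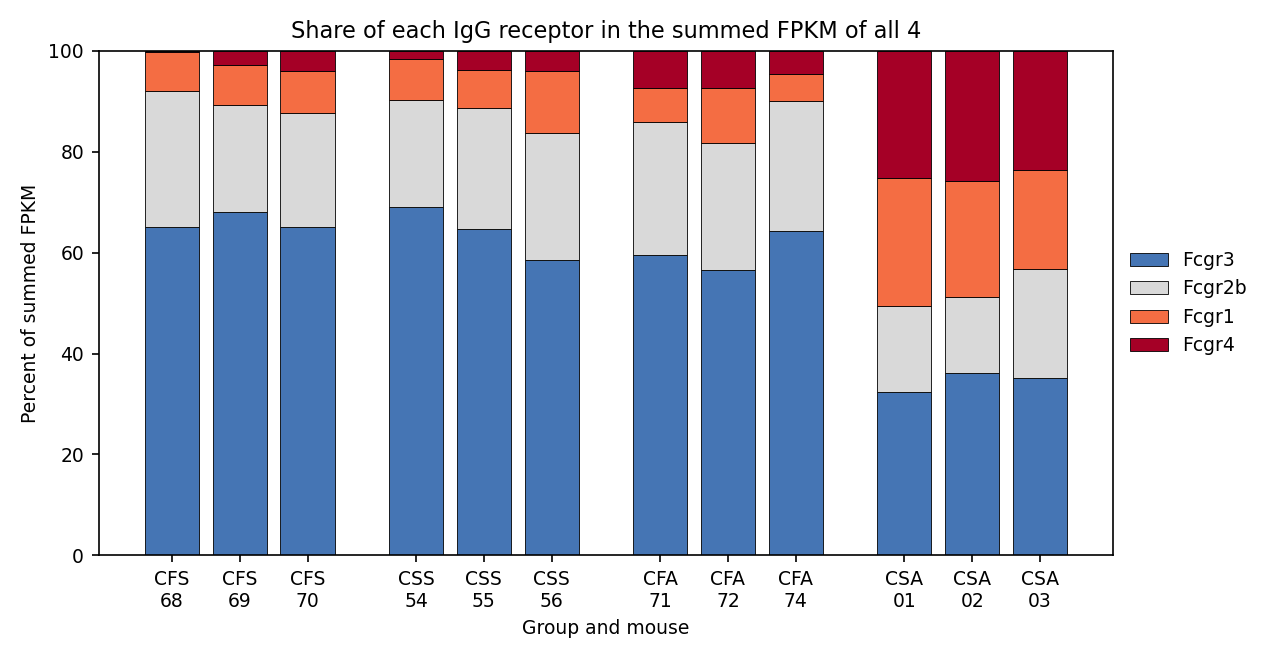
Share of each Fcγ receptor in the summed FPKM of all 4, in percent, with 1 stacked bar per mouse. Fcgr3 fills 56.6% to 69% of the bars of CFS, CSS and CFA mice and 32.4% to 36.2% of those of CSA mice, where Fcgr1 and Fcgr4 take the difference.

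The balance of activating to inhibitory receptor was read as the sum of Fcgr1, Fcgr3 and Fcgr4 over Fcgr2b. It was 2.69, 3.75 and 3.42 in CFS mice, 3.74, 3.17 and 2.97 in CSS mice, 2.79, 2.99 and 2.87 in CFA mice and 4.85, 5.68 and 3.62 in CSA mice. All CSA mice were above all CFA mice, and CSA mouse 03 lay within the saline range. The ratio of the γ chain to the activating receptors differed little, at 1.09 ± 0.167 in CFS, 1.15 ± 0.162 in CSS, 1.04 ± 0.215 in CFA and 0.979 ± 0.108 in CSA, with overlapping groups. Fcgrt over Fcer1g was 4.45 to 7.08 in CFS, 4.95 to 6.26 in CSS, 2.40 to 7.07 in CFA and 0.146 to 0.292 in CSA. These ratios are descriptions of chosen genes and carry no test.

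Summed markers of macrophages and monocytes and of neutrophils, cells that carry Fc receptors, were higher in CSA than in the other groups. The 14 macrophage and monocyte markers summed to 295 to 358 FPKM in CFS, 313 to 385 in CSS, 377 to 803 in CFA and 2549 to 2897 in CSA, with mouse 72 the highest of CFA and no marker at 0 in any library. Between CSA and CFA, 12 of the 14 rose, with a median log2 difference of 2.68 against -0.04 for all tested genes. The other 2 were not called, and the lowest difference in the list was -1.10. Of the 12 that passed the filter without the CSA libraries 10 rose, with a median of 2.41 (Itgam and Ly6c2 did not pass without them). Ly6c2, a marker of inflammatory monocytes that has a close paralog, rose by 6.60 (SE 0.42), Ccr2, the monocyte chemokine receptor, by 4.10 (SE 0.41) and Itgam by 3.61 (SE 0.39), a gene that shares 68.7% of its exonic bases with other annotated genes. The 12 neutrophil markers summed to 3.82 to 15.7 FPKM in CFS, 4.42 to 5.75 in CSS, 11.3 to 28.2 in CFA and 531 to 584 in CSA, and 10 were tested. Of these, 7, Cxcr2 (5.12) among them, passed the filter on low values only through the CSA libraries, in which they are high, so that their rise was largely fixed by the filter. The other 3, S100a8 (5.27) among them, passed without those libraries and rose. Ngp, a neutrophil granule gene listed at 0 in all CFA mice, measured 6.85, 8.91 and 12.3 FPKM in CSA mice. From 3 to 5 neutrophil markers were at 0 in each CFS, CSS and CFA library and at most 1 in CSA. The part of these cells in the Fc receptor values was not tested.

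Set against the mean log2 level of the 14 macrophage and monocyte markers in the same mouse, the members fell into different patterns across the groups. Fcgr3 stayed near the markers in all groups, at 0.34 ± 0.12 (SD, n = 3) in CFS, 0.13 ± 0.35 in CSS, 0.23 ± 0.24 in CFA and 0.45 ± 0.41 in CSA on the log2 scale. Fcgr2b lay at -1.13 ± 0.31, -1.30 ± 0.29, -0.98 ± 0.24 and -0.51 ± 0.60, where the CSA mice overlapped those of CFS and CFA and lay above those of CSS. Fcgr1, in contrast, lay at -2.61 ± 0.14, -2.60 ± 0.18, -2.73 ± 0.73 and -0.16 ± 0.18, and Fcgr4 at -4.51 ± 1.32, -4.04 ± 0.69, -2.92 ± 0.46 and -0.02 ± 0.30. For these 2 genes and for Fcer1g, at 0.67 ± 0.16, 0.57 ± 0.11, 0.57 ± 0.25 and 1.66 ± 0.23, every CSA mouse was above every other mouse. Fcgrt ran the other way, at 3.19 ± 0.18, 3.08 ± 0.07, 2.69 ± 0.56 and -0.50 ± 0.31. The values depend on the markers chosen and carry no test, and the share of all genes without overlap on this scale was not measured.

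**Figure D4:**
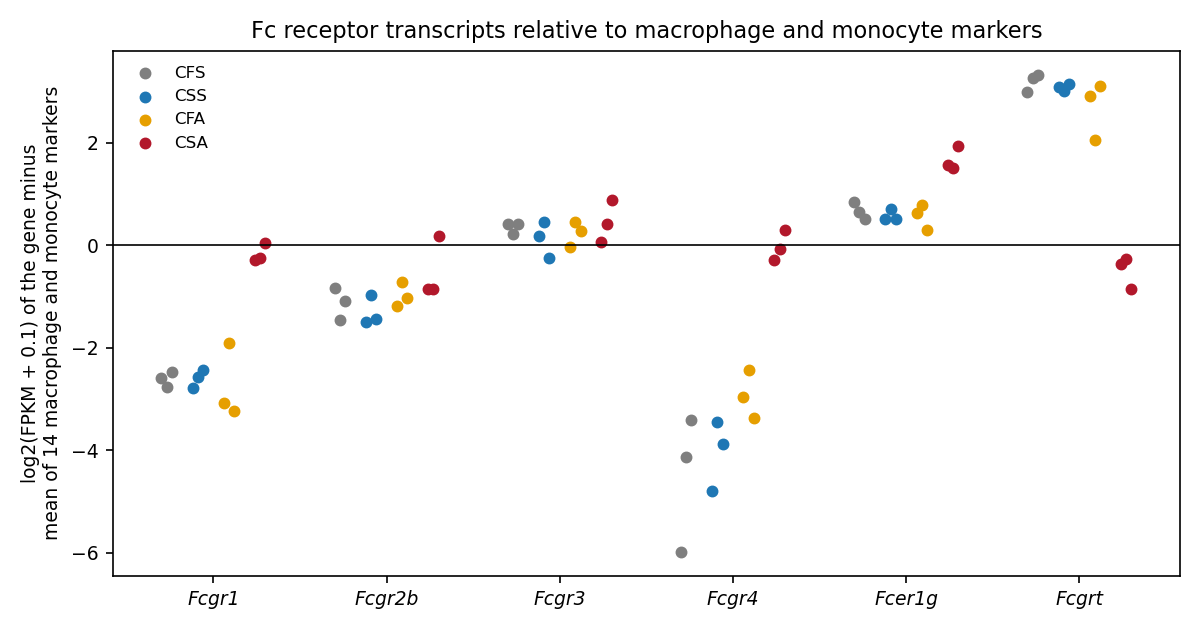
Level of each gene as log2(FPKM + 0.1) minus the mean log2 level of 14 macrophage and monocyte markers in the same mouse, with 1 point per mouse. CSA points of Fcgr3 overlap those of each other group, CSA points of Fcgr2b overlap those of CFS and CFA and lie above those of CSS, CSA points of Fcgr1, Fcgr4 and Fcer1g lie above the others, and CSA points of Fcgrt lie below.

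Other leukocyte lists were measured beside these. T cell and NK cell markers summed to 0.963 to 6.24 FPKM in CFS, CSS and CFA mice and to 38.9 to 61.1 FPKM in CSA. Of 12 listed, 8 were tested and rose, 7 of which, with Trac (5.07), Cd2 (4.01) and Cd4 (3.93), were tested only through the CSA libraries. Of 6 tested B cell and plasma cell markers 3 rose, all of them tested only through the CSA libraries, namely Mzb1 (3.86, with 57.2% of exonic bases shared with other genes), Cd22 (2.77) and Cd79b (2.43), with sums of 61.8 to 79.6 FPKM outside CSA and 96.6 to 121 in CSA. Of 7 tested dendritic cell markers 4 rose, all of them tested only through the CSA libraries, namely Ccr7 (4.32), Itgax (3.66), Flt3 (2.97) and Batf3 (1.70), with sums of 6.13 to 18.1 FPKM outside CSA and 32.5 to 43.1 in CSA. The 3 dendritic cell markers that passed without those libraries were not called and had a median of -0.11. Mast cell and basophil markers did not move as a group, with 1 of 6 tested genes called (Hdc, 3.72, tested only through the CSA libraries), a median of -0.35 and overlapping sums of 11.5 to 45.2 FPKM outside CSA and 25.4 to 40.5 FPKM in CSA. Kit (-1.12) and Cma1 (0.73), the next by size, were not called.

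Structural cell lists went different ways, and their difference from Fcer1g and the Fcγ receptors was not tested. All 8 smooth muscle markers fell (median -3.32), led by Synpo2 (-4.28), Myh11 (-4.17) and Cnn1 (-3.80). Of 8 endothelial markers 3 fell, Vwf (-2.36), Tek (-1.89) and Pecam1 (-1.84), and 1, Emcn, rose (1.56), with a median of -0.97 and sums of 115 to 505 FPKM outside CSA and 138 to 174 in CSA. Endothelium is a site of FcRn, and the part of this change in the Fcgrt values was not tested. Of 6 adipocyte markers 2 fell, Lep (-3.41) and Plin1 (-2.88), with Ucp1 (-2.17) not called and a median of -2.00, at sums of 64.8 to 647 FPKM outside CSA and 55.1 to 95.9 in CSA. None of 7 fibroblast markers was called (median 0.54), at 1527 to 3138 FPKM outside CSA and 4570 to 5423 FPKM in CSA, with Lum at 1.44, Pi16 at -1.17 and Dpt at -1.13.

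Antibody is the ligand of Fc receptors, and its transcripts in the aorta were examined as 13 immunoglobulin constant regions and J chain. Antibody protein and its origin were not measured. Of 10 tested, 9 rose between CSA and CFA and Ighd did not (0.10). However, 6, Igha and Ighg2c among them, were tested only through the CSA libraries, so that the filter largely fixed their rise. Of the 4 that passed without those libraries 3 rose, Jchain among them. Igha measured 0.0860, 1.73 and 0.831 FPKM in CFA mice and 132.5, 47.6 and 47.0 in CSA mice (log2 difference 6.61, SE 1.23, limma adjusted p = 0.00141). Ighg2c, an IgG isotype bound by the receptor encoded by Fcgr4, measured 0.208, 0.142 and 0.178 FPKM in CFA mice and 28.1, 3.84 and 12.5 in CSA mice (5.35, SE 0.71, adjusted p = 1.48e-04). CSA mouse 01 was the highest and mouse 02 the lowest for Ighg2c, and a link with the level of Fcgr4 was not tested. Jchain, which links polymeric antibody, rose by 5.61 (SE 0.78, adjusted p = 1.99e-04).

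Genes that carry the signal inward were counted next. Of 28 kinases, adaptors and enzymes of Fc receptor signaling, 20 rose between CSA and CFA, none fell and 8 were not called, among them Plcg1 with a difference of -0.38 (adjusted p by limma 0.0702). Of the 22 that passed the filter without the CSA libraries 14 rose (median 2.30). The adaptor Lat2, which was tested only through the CSA libraries and shares 36.3% of its exonic bases with other genes, rose by 3.94 (SE 0.31) and Vav1, an exchange factor for Rac, by 3.81 (SE 0.34). Of 15 further ITAM adaptors and receptors that use them, 12 were tested and rose, but 10 of these were tested only through the CSA libraries, among them the C-type lectins Clec4d (5.40, SE 0.62) and Clec4e (4.31, SE 0.47) and the neutrophil and monocyte receptor Trem1 (4.90, SE 0.65). Of 11 inhibitory enzymes and adaptors 4 rose and 7 were not called (median 1.03), and 3 of the 10 that passed without the CSA libraries rose. The difference between these lists was not tested. Those that rose were Ptpn6, the SHP-1 phosphatase, at 3.67 (SE 0.24), the adaptor Dok3 at 2.67 (SE 0.52), the phosphatase Ubash3b, tested only through the CSA libraries, at 2.53 (SE 0.29) and Inpp5d, the SHIP-1 phosphatase recruited by the Fcgr2b product, at 2.65 (SE 0.35). None of the genes in these 3 lists was called between CSS and CFS or between CFA and CFS. Calls were rare there, at 0.0136% and 0.0273% of all tested genes.

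**Figure D5:**
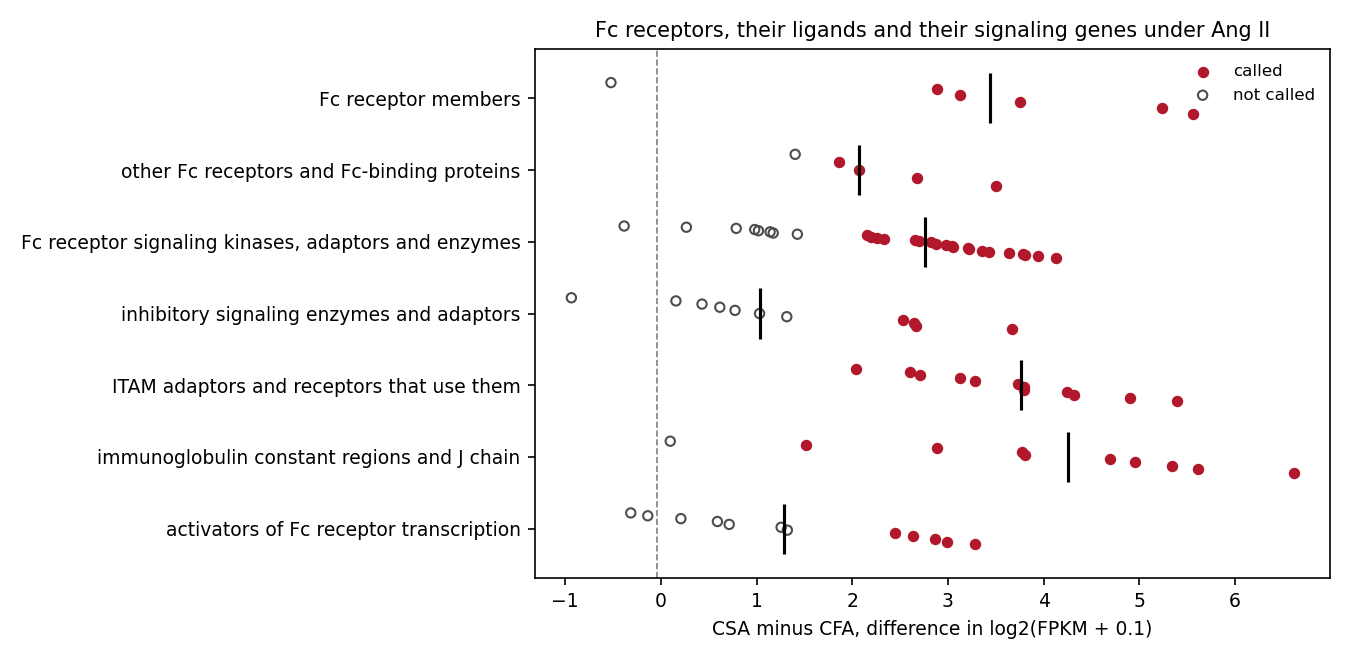
CSA minus CFA difference in log2(FPKM + 0.1) for each tested gene of the Fc receptor group and 6 related lists, with filled points for called genes, open points for the rest, a tick at the median of each list and a dashed line at the median of all tested genes (-0.04). List medians run from 1.03 for inhibitory enzymes to 4.25 for immunoglobulin constant regions, and include genes tested only through the CSA libraries. Without those genes the medians are 0.90 for inhibitory enzymes, 3.23 for immunoglobulin constant regions and 3.46 for ITAM adaptors and receptors.

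Among 14 other Fc receptors and Fc-binding proteins, 5 were tested and 4 rose, 2 of them (Fcrlb and Fcrla) tested only through the CSA libraries, with Fcrlb at 3.50 (SE 0.78), Fcrla at 2.68 (SE 0.76), B2m at 2.07 and Fcrls at 1.87, and Fcer1a and Ms4a2 were among those under the filter on low values. Of 14 genes listed under activators of Fc receptor transcription, which include cytokine receptors, 12 were tested and 5 rose (median 1.29). Among them were Spi1, which encodes PU.1 (3.28, SE 0.31, limma adjusted p = 1.39e-05), and Irf8 (2.99, SE 0.37). Csf2rb, a cytokine receptor chain with a close paralog (2.86, SE 0.40), and the interleukin-4 receptor Il4ra (2.64) also rose. Whether each listed gene raises or lowers Fc receptor transcripts was not tested. Spi1 measured 5.18, 10.1 and 3.83 FPKM in CFA mice and 67.2, 59.8 and 48.0 in CSA mice. Spi1 was highest in mouse 72 among CFA mice and lowest in mouse 03 among CSA mice. The 5 rising Fc receptor genes were highest in mouse 72 among CFA mice and in mouse 03 among CSA mice. The part of Spi1 in their levels was not tested.

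The genes with the most similar pattern were found for each member from the root mean square difference of mean-centred log2(FPKM + 0.1) over the 12 libraries, among 14409 tested genes with a symbol, leaving out the other members. Fcgr1 was closest to Tnfsf8 (0.269), Oas3 (0.290) and Ifi209 (0.306), Fcgr4 to Cd300lf (0.534), Kng2 (0.679) and Il1b (0.685), and Fcgr3 to Sap30 (0.240), Gm5431 (0.264) and C5ar1 (0.27). Fcgr2b was closest to Lyn (0.238), BE692007 (0.272) and Bex6 (0.274), and Fcer1g to Cd69 (0.214), Lcp1 (0.220) and Pilrb2 (0.224). Within the group, Fcgr2b and Fcgr3 were the nearest pair (0.27) and Fcgr4 and Fcgrt the farthest (3.33). Fcgrt followed Prune1 (0.0939), Slc37a3 (0.0989) and Acbd6 (0.10). Mean CFA levels were 0.0989 FPKM for Tnfsf8, 0.123 for Bex6 and 0.130 for Cd69, near the pseudocount of 0.1. The other named genes had CFA means of 0.315 FPKM (Oas3) or more. The points share libraries and the large CSA difference, so these distances are descriptions.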

How the data were processed

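Poly(A) RNA-Seq of the abdominal aorta covered 12 mice, placed in 4 groups of 3 from the labels. An FPKM value per gene and library was deposited by the authors, without pooling. The submitters' processing notes name HISAT2 2.0.5, StringTie 1.3.3b, featureCounts 1.5.0-p3 and the mm10 build, with no role or order. The annotation and strand setting are not given in the sources used here. The study's methods name DEG-Seq. The deposited FPKM are not counts, so limma was used.

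Of 54532 mouse Ensembl identifiers, 54495 matched GENCODE M21. With its exon lengths, 98.0% to 98.5% of values under 100 fragments came within 0.05 of a whole fragment, which gave the depth. FPKM were tested as log2(FPKM + 0.1) with limma 3.58.1 in R 4.3.3 (eBayes with trend and robust settings, 1 coefficient per group), over genes with at least 1 FPKM in at least 3 libraries, with Benjamini-Hochberg adjustment over all 14676 tested genes. The scripts were tested on simulated data. Each library is from 1 mouse, so p-values rest on the spread between mice within groups. That spread was estimated for each gene over all groups together and moderated by eBayes, so it is not the spread of the compared groups alone. The depth limits precision mainly for Fcgr4 under saline.

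The members, lists and tests were chosen with earlier results of these data known. Named genes are the 6 members, the 3 genes of each list with the largest CSA minus CFA difference, Ccn2, and the 3 genes most like each member. Genes named beside these (Plcg1, Fcer1a, Ms4a2, Ighd, Fcrls, Ubash3b, Batf3, Emcn and Il4ra) were chosen after their values were seen. Some genes that the lists hold are not reported here by name. Alternatives were a pseudocount of 1, no filter, a mean FPKM of at least 5, equal FPKM totals, eBayes without trend and robust settings, a fit of only the 2 groups compared, and leaving out each mouse. Limma voom on recovered fragments was added after seeing the data. Further steps used pandas 2.3.3 and numpy 2.4.6 under Python 3.11.15, and plots used matplotlib 3.10.9.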

Additional observations from a re-analysis of the deposited data

Results flagged for a closer look

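The genotype difference was larger under Ang II than under saline by limma's interaction test for 5 of the 6 Fc receptor genes. The term was 5.11 on the log2 scale for Fcgr1, 4.97 for Fcgr4, 3.74 for Fcer1g, 3.19 for Fcgr2b and 2.99 for Fcgr3, and all 3 CSA mice were above every CSS and CFA mouse for each gene. Of 48 genes named from the other lists, 40 had a genotype difference that departed between Ang II and saline by the same test, with the adjusted p below 0.05 and the term over 1.5 in size, against 15.2% of all tested genes. These 48 were chosen for their CSA minus CFA difference, which is one side of the term, so the choice largely fixed that count. With 3 mice in a group, single mice were not tested as outliers.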

How the results depend on the processing

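Over 19 alternative settings, the 30 results of the 6 genes in 5 comparisons gave 564 values, of which 553 kept the direction and the side of the threshold, 0 lost or gained a call and 11 reversed. The reversed values all came from leaving out 1 mouse in comparisons without a call. With 1 mouse left out, CSS minus CFS ranged from -0.094 to 0.12 for Fcer1g, -0.091 to 0.064 for Fcgrt, -0.29 to 0.13 for Fcgr3, -0.14 to 1.09 for Fcgr4 and -0.26 to 0.095 for Fcgr2b, and CFA minus CFS from -0.0072 to 0.15 for Fcgrt and -0.30 to 0.90 for Fcgr1. The cause was not tested. The CSA minus CFA difference over all settings ranged from 4.64 to 6.0 for Fcgr1, 4.93 to 6.15 for Fcgr4, 3.43 to 4.22 for Fcer1g, 2.82 to 3.61 for Fcgr2b and 2.59 to 3.35 for Fcgr3, with the lowest value for Fcgr1 and Fcgr4 at a pseudocount of 1. The adjusted p of Fcgrt in that comparison was above 0.05 without a filter (0.0542), at equal totals (0.0562), with only the 2 groups in the fit (0.136) and without CFA mouse 71 (0.0544), 72 (0.0814) or 74 (0.0824).

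The number of genes called between CSA and CFA was 2528, and 1601 at a pseudocount of 1 and 1095 at a mean FPKM of at least 5, which tests fewer genes. CSA minus CSS had 2977, and 1918 and 1272 under the same settings, and the interaction 2231, and 1078 at a mean FPKM of at least 5. CSS minus CFS had 2, with 5 without a filter, 1 at a mean FPKM of at least 5, 4 at equal totals, 20 with only the 2 groups in the fit and 0 to 16 with 1 mouse left out (16 without CSA mouse 03, and 0 without mouse 68, 54 or 56). CFA minus CFS had 4, with 10 at equal totals, 1 without the trend and robust settings, 0 with only the 2 groups in the fit and 0 to 124 with 1 mouse left out (124 when CFA mouse 74 was dropped, 19 when CSA mouse 03 was, and 0 when mouse 68, 70, 54, 56, 71 or 72 was). No paired analysis was possible because the groups share no mouse numbers. Depth limits Fcgr4 under saline, at 1 to 19 fragments.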
